A study of Homo sapiens with 54 samples.

Results

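The response of HepG2 cells to tolbutamide after 24 h of exposure was read from 9 of the 54 arrays of the series. The members were chosen by array title: the 3 biological replicates exposed to tolbutamide at 2.1 mM for 24 h, and the 6 arrays exposed for 24 h to the solvent alone, 0.5% dimethyl sulfoxide (DMSO), which came from 2 solvent exposures with 3 biological replicates each. Every tolbutamide array was paired with the 2 DMSO arrays of the same replicate number, which the labels name as its controls. HepG2 is a cell line from a human hepatocellular carcinoma, grown here in 6-well plates, and neither group carried any other treatment. The other arrays of the series, used below for comparison, hold tolbutamide and DMSO at 48 h and 6 other compounds at both times.

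Tolbutamide is a sulfonylurea, a class of oral drugs for type 2 diabetes. In pancreatic beta cells sulfonylureas close the ATP-sensitive potassium channel, which depolarises the membrane and leads to the release of insulin. The drug is cleared mainly by the liver, and HepG2 cells are used in toxicology as a liver cell model although they keep only part of the drug metabolism of hepatocytes.

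The values are log2 expression levels of 20056 Ensembl gene IDs, carried in the form ENSG00000108932_at. Of these IDs, 0 could be matched to a gene symbol with the tables at hand, so genes are given by ID, no function is assigned to them, and the HepG2 label could not be checked against hepatocyte markers. As a measure of its range of values, every array was regressed on the average of the 54 arrays, and the slope was 1.03, 1.02 and 1.03 in tolbutamide replicates 1 to 3. It was between 1.01 and 1.04 in 5 of the 6 DMSO arrays and 0.911 in DMSO exposure 2 replicate 2, which had a compressed range, so counts are given with and without that array. In 3 arrays of other groups, which enter the shared estimate of the spread, the slope was also under 0.95. The median standard deviation of an ID was 0.125 over the tolbutamide arrays (n = 3) and 0.243 over the DMSO arrays (n = 6), or 0.174 over DMSO without exposure 2 replicate 2 (n = 5). Measured as the root mean square difference over all IDs, tolbutamide replicate 2 lay 0.296 from DMSO exposure 1 and 0.582 from DMSO exposure 2 of its number, and the 2 DMSO arrays of that number lay 0.657 apart. For replicate 1 the 3 distances, in the same order, were 0.347, 0.296 and 0.361, and for replicate 3 they were 0.308, 0.264 and 0.237. Both tolbutamide distances were thus below the distance between the controls in replicate 1 and above it in replicate 3. In replicate 2 the distances of 0.582 and 0.657 both involve the compressed array.

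At 24 h, 172 IDs rose and 233 fell under tolbutamide (limma with the replicate number as a block, two-sided, Benjamini-Hochberg adjusted p under 0.05 over all IDs). The 405 called IDs were 2.02% of those tested, the rises 0.858% and the falls 1.16%. Most changes were small. The rises had a median log2 difference of 0.63, a 1.55-fold change, and 27 of the 172 reached 2-fold and 3 reached 4-fold. The falls had a median size of 0.77 on the log2 scale, a 1.70-fold change, and 52 of the 233 reached 2-fold and 0 reached 4-fold. Over all IDs the median size of the difference was 0.097 on the log2 scale, and 109 IDs, or 0.543%, differed by at least 2-fold. The call was made at an adjusted p under 0.01 for 209 IDs and under 0.001 for 107. The unadjusted p was under 0.05 for 1724 IDs, or 8.6%. DMSO exposure 2 was compared with exposure 1 at 24 h in a limma fit with the exposures as separate groups of 3 arrays. That fit called 0 IDs, with 271 IDs, or 1.35%, at an unadjusted p under 0.05. The median size of the difference between the exposures was 0.114 on the log2 scale, and that for tolbutamide was 0.097. The comparison of the exposures had fewer arrays than that of tolbutamide with DMSO, and exposure 2 includes the compressed array. Its 0 calls can therefore not be set directly against the 405, nor its 0.114 against the 0.097. Which of these median sizes would be larger with equal numbers of arrays was not tested.

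The count held without the compressed DMSO array but its split moved. Without DMSO exposure 2 replicate 2, 401 IDs were called, or 2.0%, of which 147 rose and 254 fell, and 338 of the 405 calls were among them in the same direction. Without all 4 arrays with a slope under 0.95, 1068 IDs were called, or 5.33%, with 442 rises and 626 falls. The median standard error of the difference was then 0.118, against 0.16 with all arrays, and 404 of the 405 calls were kept in the same direction. With the replicate block left out of the model, 233 IDs were called, of which 86 rose and 147 fell. With only the 9 arrays compared in the model, 138 were called, and 129 of the 405 calls, or 31.9%, were among them in the same direction. With array weights the count was 2469. It was 231 with DMSO exposure 1 alone, 177 with exposure 2 alone and 214 with the 2 exposures averaged. Leaving out tolbutamide replicate 1, 2 or 3 gave 202, 198 or 204 calls, so that each of the 3 arrays moved the count by over 1.5 times, as did piperonyl butoxide 48 h replicate 1, without which 611 IDs were called. The arrays measure RNA of whole cultures, so fewer cells with a transcript and less of it per cell cannot be told apart.

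The ID with the greatest rise was ENSG00000108932_at. Its log2 level was 8.87, 8.76 and 9.09 in the tolbutamide arrays, against a lowest value of 4.68, a median of 6.44 and a highest value of 6.99 in the 6 DMSO arrays. The groups did not overlap, and the lowest DMSO value was that of the compressed array. The means were 8.91 ± 0.17 (SD, n = 3) under tolbutamide and 6.07 ± 0.92 (SD, n = 6) under DMSO, a log2 difference of 2.84 with a standard error of 0.53, or 7.15-fold (limma adjusted p = 0.000792). Without DMSO exposure 2 replicate 2 the difference was 2.58 (limma adjusted p = 0.00276).

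The next rise was that of ENSG00000070669_at, at 12.25, 11.78 and 11.67 in the tolbutamide arrays and between 8.79 and 9.50 in the DMSO arrays, with a DMSO median of 9.37. The gap between the groups was several times the range within either of them. The log2 difference was 2.65 with a standard error of 0.27, or 6.26-fold (limma adjusted p = 1.95e-08).

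The greatest fall was that of ENSG00000107984_at. It stood at 7.75, 7.26 and 7.52 in the tolbutamide arrays, against 9.84, 9.59 and 9.33 in DMSO exposure 1 and 9.77, 8.01 and 9.62 in DMSO exposure 2. All tolbutamide arrays were below all DMSO arrays, and the DMSO value nearest to them came from the compressed array. The means were 7.51 ± 0.25 (SD, n = 3) under tolbutamide and 9.36 ± 0.69 (SD, n = 6) under DMSO, a log2 difference of -1.85 with a standard error of 0.30, or 3.60-fold lower (limma adjusted p = 0.000127). Without the compressed array the difference was -2.08 (limma adjusted p = 7.37e-06).

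The next fall, ENSG00000170345_at, varied with the replicate number. Under tolbutamide it was 4.94, 6.10 and 7.48 in replicates 1 to 3, against 5.04, 8.32 and 8.92 in DMSO exposure 1 and 6.91, 8.52 and 8.41 in DMSO exposure 2. The groups overlapped, but each tolbutamide array was below both DMSO arrays of its own number, with differences from their mean of -1.03, -2.33 and -1.19. The log2 difference was -1.51 with a standard error of 0.38 (limma adjusted p = 0.0222). This call depended on the model: the limma adjusted p was 0.591 without the replicate block, 0.0507 without DMSO exposure 2 replicate 2, 0.0537 without DMSO exposure 2 replicate 1, 0.125 without tolbutamide replicate 1 and 0.241 without tolbutamide replicate 2.

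**Figure D1:**
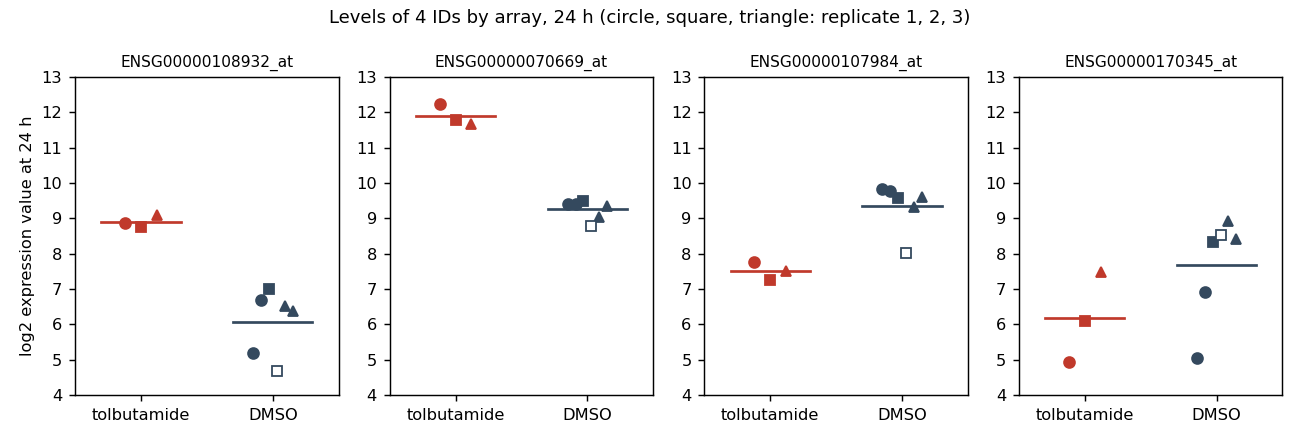
Log2 expression value at 24 h (y axis) of the 2 IDs with the greatest rises and the 2 with the greatest falls, with tolbutamide (red, 3 arrays) left of DMSO (dark, 6 arrays). Bars are group means, the marker shape gives the replicate number, and the open square is DMSO exposure 2 replicate 2; the groups overlap in ENSG00000170345_at and in none of the other 3 panels.

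The direction of the called IDs was the same in the 3 replicates, which the choice of these IDs by the same arrays favours. Against the mean of the 2 matched DMSO arrays, all 172 rises were higher and all 233 falls lower in 3 of 3 replicates, while 7254 of all IDs, or 36.2%, had 1 direction in all 3. The median difference of the rises was 0.64, 0.70 and 0.60 in replicates 1 to 3, and that of the falls -0.87, -0.71 and -0.69. Over all IDs, Pearson's r between the differences of 2 replicates was 0.500 for replicates 1 and 2, 0.501 for 1 and 3, and 0.345 for 2 and 3. These are correlations across genes, which are not independent replicates. Of the rises, 142, or 82.6%, had all 3 tolbutamide arrays above all 6 DMSO arrays, as did 537 of all IDs, or 2.68%. Of the falls, 192, or 82.4%, had all 3 below all 6, as did 441 of all IDs, or 2.2%.

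**Figure D2:**
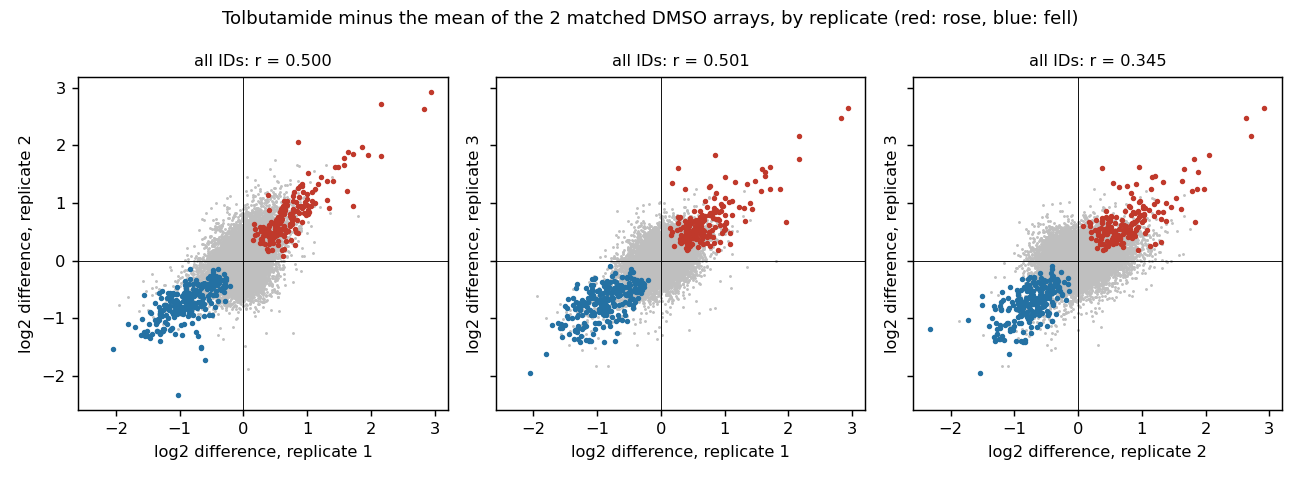
Log2 difference of each ID between a tolbutamide array and the mean of its 2 matched DMSO arrays, for each pair of replicates (x and y axes, log2 units); red points are the 172 rises, blue points the 233 falls and grey points the other IDs. The grey cloud has r of 0.500, 0.501 and 0.345 in the 3 panels with the called points included, and the red and blue points lie on opposite sides of 0 on both axes.

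The calls lay mostly among IDs with higher signals. When the 20056 IDs were split into 4 bands of 5014 by mean level over the 9 arrays, 0.14% of the lowest band were called, with 2 rises and 5 falls. The share was 0.937% in the next band (23 rises and 24 falls), 2.91% in the one above it (60 and 86) and 4.09% in the highest (87 and 118). The median DMSO level was 7.34 for the rises and 7.88 for the falls, against 5.81 for all IDs. The compressed array moved the median difference of a whole band. In the highest band the median difference was 0.067 with that array and 0.027 without it, and in the lowest band it was -0.032 with it and -0.0045 without it. The highest band held 79 rises and 117 falls when the array was left out.

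**Figure D3:**
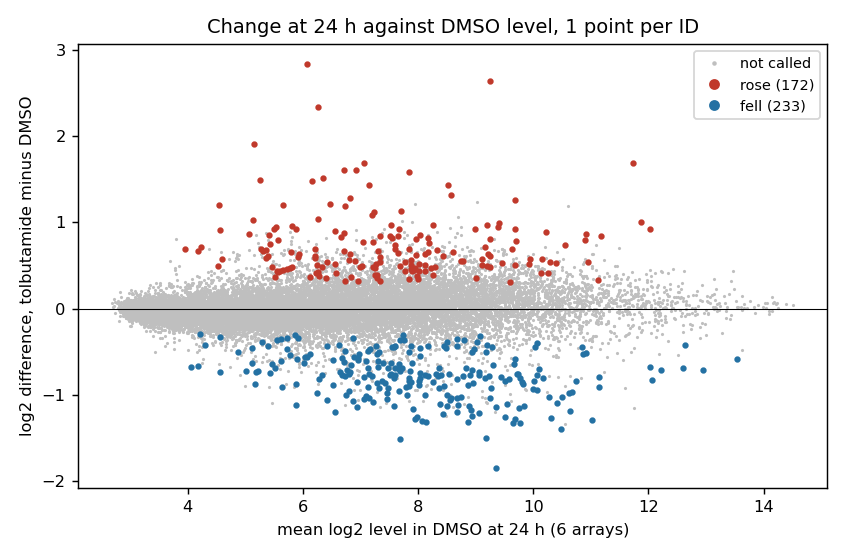
Log2 difference, tolbutamide minus DMSO at 24 h (y axis), against the mean log2 level in the 6 DMSO arrays (x axis), with 1 point per ID; red, rose (172), blue, fell (233), grey, not called. Called IDs are few at the low end of the x axis (7 in the lowest band), and the 3 greatest differences are rises.

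After 48 h of exposure, measured on other arrays of both groups, 441 IDs differed between tolbutamide and DMSO, or 2.2%, with 120 rises and 321 falls. A larger share of the falls than of the rises was called again. Of the 233 falls at 24 h, 231 were also lower under tolbutamide at 48 h and 159, or 68.2%, were called there. Their median log2 difference was -0.73 at 48 h, close to the -0.77 at 24 h. Of the 172 rises at 24 h, 154 were also higher at 48 h and 54, or 31.4%, were called there, with a median difference of 0.31 at 48 h and 0.63 at 24 h. The same 54 and 159 IDs were 45.0% of the rises and 49.5% of the falls at 48 h, and 0 IDs were called in opposite directions. Without DMSO 24 h exposure 2 replicate 2 the share of 24 h calls that were called again was 34.7% for rises and 63.8% for falls, and without the 4 low-spread arrays 37.3% and 62.9%. Whether the share for falls and the share for rises differ beyond error was not tested, and the members were picked on their 24 h value, which raises that value relative to 48 h. Over all IDs the 24 h and 48 h differences, which share no array, had a Pearson's r of 0.673 across genes.

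**Figure D4:**
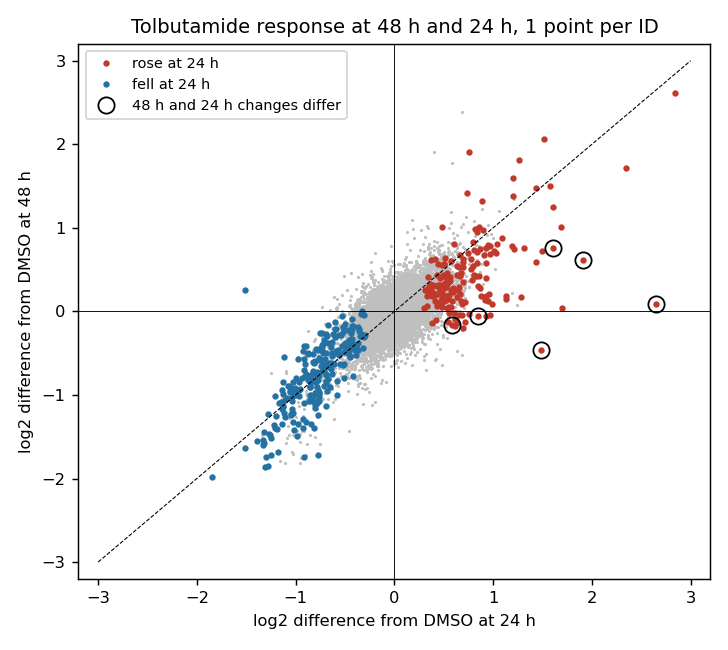
Log2 difference from DMSO at 48 h (y axis) against that at 24 h (x axis), with 1 point per ID, the dashed line marking equal values; red points rose and blue points fell at 24 h. Blue points lie along the line, red points mostly below it, and the 6 circled IDs are those whose differences at the 2 times were called different.

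The change itself differed between the times for 6 IDs, or 0.0299% (limma, 48 h difference minus 24 h difference, adjusted p under 0.05). All 6 had risen at 24 h and had a smaller or negative difference at 48 h, and 368 IDs, or 1.83%, had an unadjusted p under 0.05. ENSG00000070669_at was 12.37, 12.24 and 10.63 in the 48 h tolbutamide arrays and between 11.10 and 12.14 in the 48 h DMSO arrays. The tolbutamide mean was 11.9 at 24 h and 11.7 ± 0.97 (SD, n = 3) at 48 h. At 48 h tolbutamide replicates 1 and 2 were above every DMSO array and replicate 3 was below them all. DMSO cultures held 11.7 ± 0.34 (SD, n = 6) at 48 h and 9.25 ± 0.28 (SD, n = 6) at 24 h. The 48 h difference was 0.087 and the change of the difference -2.56 with a standard error of 0.38 (limma adjusted p = 0.000759). With DMSO exposure 2 alone this call was lost (limma adjusted p = 0.0742), as were the other 5.

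ENSG00000139269_at also had a higher DMSO level at 48 h than at 24 h. At 24 h it was 7.95, 7.53 and 7.46 under tolbutamide, against a lowest value of 5.58, a median of 6.00 and a highest value of 6.81 under DMSO, a log2 difference of 1.48 (limma adjusted p = 2.96e-05). At 48 h it was 8.09, 8.49 and 7.31 under tolbutamide and between 8.08 and 8.71 under DMSO, so that the groups overlapped. The change of the difference was -1.95 with a standard error of 0.31 (limma adjusted p = 0.0018). For the 4 other IDs it was between -1.30 and -0.74 on the log2 scale. The count of 6 was 3 without tolbutamide 24 h replicate 1 or replicate 2, 2 without tolbutamide 48 h replicate 3, where ENSG00000139269_at had a limma adjusted p of 0.0649, and 11 without piperonyl butoxide 48 h replicate 1. Other DMSO arrays or models gave 2 with DMSO exposure 1 alone, 0 with exposure 2 alone, 3 with the exposures averaged and 3 with only the arrays compared, and 12 without the 4 low-spread arrays and 57 with array weights.

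The other 3 leading IDs kept their direction or lost it. At 48 h ENSG00000108932_at differed by 2.61 (limma adjusted p = 0.0019) and ENSG00000107984_at by -1.99 (limma adjusted p = 3.27e-05). ENSG00000170345_at differed by 0.25 at 48 h with a standard error of 0.38. Its change between the times was 1.77 with a standard error of 0.54 and was not called (limma adjusted p = 0.972). Its DMSO mean was 7.69 at 24 h and 5.75 at 48 h.

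Most IDs that fell under tolbutamide at 24 h were also lower in DMSO cultures at 48 h than in DMSO cultures at 24 h. Because the 24 h DMSO arrays enter both values, this was read from arrays that had not chosen the IDs. The 155 falls called with DMSO exposure 1 alone were looked up in DMSO exposure 2, where 149, or 96.1%, were lower at 48 h, with a median difference between the times of -0.58. The 100 falls called with exposure 2 alone were looked up in exposure 1, where 91, or 91%, were lower, with a median of -0.63. Over all IDs the shares that were lower at 48 h were 58.9% in exposure 2 and 38.7% in exposure 1. For the rises the shares that were higher at 48 h were 63.2% of 76 in exposure 2 and 75.3% of 77 in exposure 1, against 41.1% and 61.3% of all IDs. The 24 h arrays of exposure 2 include the compressed one, whose part in these shares was not tested. Within the tolbutamide cultures the 233 falls were lower still at 48 h, by a median of -0.43 on the log2 scale, so the median gap to DMSO stayed near its 24 h size. The 172 rises differed between the times by a median of -0.064 under tolbutamide and 0.18 under DMSO. Both values, and the -0.43 of the falls, rest in part on 24 h arrays that also chose the IDs.

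Set directly against the other 6 compounds at 24 h, in contrasts without DMSO arrays, tolbutamide differed least from methapyrilene by count. By the median size of the difference over all IDs, clonidine (0.0999) was nearest and methapyrilene (0.103) next. By that measure NNK (0.207) and piperonyl butoxide (0.283) were farthest. The doses were not matched: tolbutamide was given at 2.1 mM, NNK (a nitrosamine from tobacco) at 10 mM, 2-nitrofluorene at 35 µM, clonidine at 95 µM, methapyrilene at 114 µM, nifedipine at 420 µM and piperonyl butoxide at 45 µM. Against methapyrilene 67 IDs were called, or 0.334%, of which 40 were higher under tolbutamide and 27 lower. The counts were 236 against clonidine, or 1.18% (87 higher, 149 lower), and 239 against 2-nitrofluorene, or 1.19% (68 higher, 171 lower). They were 343 against NNK, or 1.71% (217 higher, 126 lower), and 440 against nifedipine, or 2.19% (311 higher, 129 lower). Piperonyl butoxide stood farthest away, with 4292 IDs, or 21.4% (2645 higher, 1647 lower). Replicate 2 of NNK and of piperonyl butoxide at 24 h, with slopes of 0.80 and 0.86, are among the 4 low-spread arrays. Their part in the median sizes for these 2 compounds was not tested. Without these 4 arrays the order of methapyrilene (222) and piperonyl butoxide (5107) as lowest and highest count held, while the split against NNK turned to 256 higher and 445 lower.

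The leading IDs differed in how far other compounds moved them too. ENSG00000108932_at had a mean log2 level of 8.91 under tolbutamide, 9.18 under nifedipine and 9.21 under piperonyl butoxide, and between 6.14 and 7.32 under the other 4 compounds. The difference from nifedipine was -0.27 and that from piperonyl butoxide -0.30, each with a standard error of 0.61, and neither was called. ENSG00000070669_at was 11.9 under tolbutamide, 11.7 under methapyrilene, 12.4 under nifedipine and 12.3 under piperonyl butoxide. Tolbutamide was above NNK by 2.54 (limma adjusted p = 2.94e-06) and above clonidine by 1.65 (limma adjusted p = 0.00145). It was above 2-nitrofluorene by 1.12, which was not called (limma adjusted p = 0.063). 2-nitrofluorene was itself above DMSO by 1.53 for this ID (limma adjusted p = 0.00121). ENSG00000107984_at was lower under tolbutamide than under clonidine by a log2 difference of -1.93 (limma adjusted p = 0.000946), than under NNK by -1.28 (limma adjusted p = 0.0434) and than under piperonyl butoxide by -2.40 (limma adjusted p = 1.11e-06). Its mean level was 7.51 under tolbutamide, 6.93 under nifedipine, 7.90 under methapyrilene and 7.91 under 2-nitrofluorene, and tolbutamide was not called different from any of these 3. Each of the 3 was itself below DMSO, by log2 differences of -2.43 for nifedipine (limma adjusted p = 2.81e-07), -1.46 for methapyrilene (limma adjusted p = 0.00351) and -1.45 for 2-nitrofluorene (limma adjusted p = 0.0118), with the same DMSO arrays in each comparison.

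Only 3 IDs, or 0.015%, were called in the same direction against DMSO and against each of the 6 other compounds at 24 h, all higher under tolbutamide. ENSG00000265972_at was 9.83, 9.40 and 9.05 in the tolbutamide arrays, against a lowest value of 7.04, a median of 7.46 and a highest value of 9.03 in the DMSO arrays. The lowest tolbutamide value and the highest DMSO value almost met, but the 2 highest DMSO values were of replicate 1, and within each number tolbutamide was above the mean of its controls, by 0.85, 2.06 and 1.83. The log2 difference from DMSO was 1.58 with a standard error of 0.27 (limma adjusted p = 0.000222), and at 48 h it was 1.5. The smallest difference from another compound was 1.41, from nifedipine (limma adjusted p = 0.00633). Nifedipine was 8.72, 8.74 and 6.60 in replicates 1 to 3, so its lowest array enlarged that difference.

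ENSG00000162645_at had low levels throughout: 5.36, 5.62 and 6.29 under tolbutamide, against a lowest value of 4.24, a median of 4.56 and a highest value of 4.89 under DMSO. The highest level of any other compound at 24 h was 5.06, so the 3 tolbutamide arrays were above every other 24 h array. The log2 difference from DMSO was 1.2 with a standard error of 0.15 (limma adjusted p = 1.52e-06) and at 48 h it was 1.60. The smallest difference from another compound was 0.86, from nifedipine (limma adjusted p = 0.00264). The third ID had a difference from DMSO of 0.63. The count of 3 was 1 without the replicate block, 5 with arrays centred on the median, 6 with cyclic loess, 7 without the 4 low-spread arrays and 15 with array weights. It was 1 without tolbutamide 24 h replicate 2, 6 without piperonyl butoxide 48 h replicate 1, and 5 without tolbutamide 48 h replicate 3 or DMSO 48 h exposure 1 replicate 3. By value alone, without a test, 91 of the 172 rises were higher and 55 of the 233 falls lower under tolbutamide than under all 6 other compounds. The same tolbutamide arrays chose these IDs, which favours such an order. The share over all IDs was not counted, so these counts do not show a trait particular to tolbutamide.

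**Figure D5:**
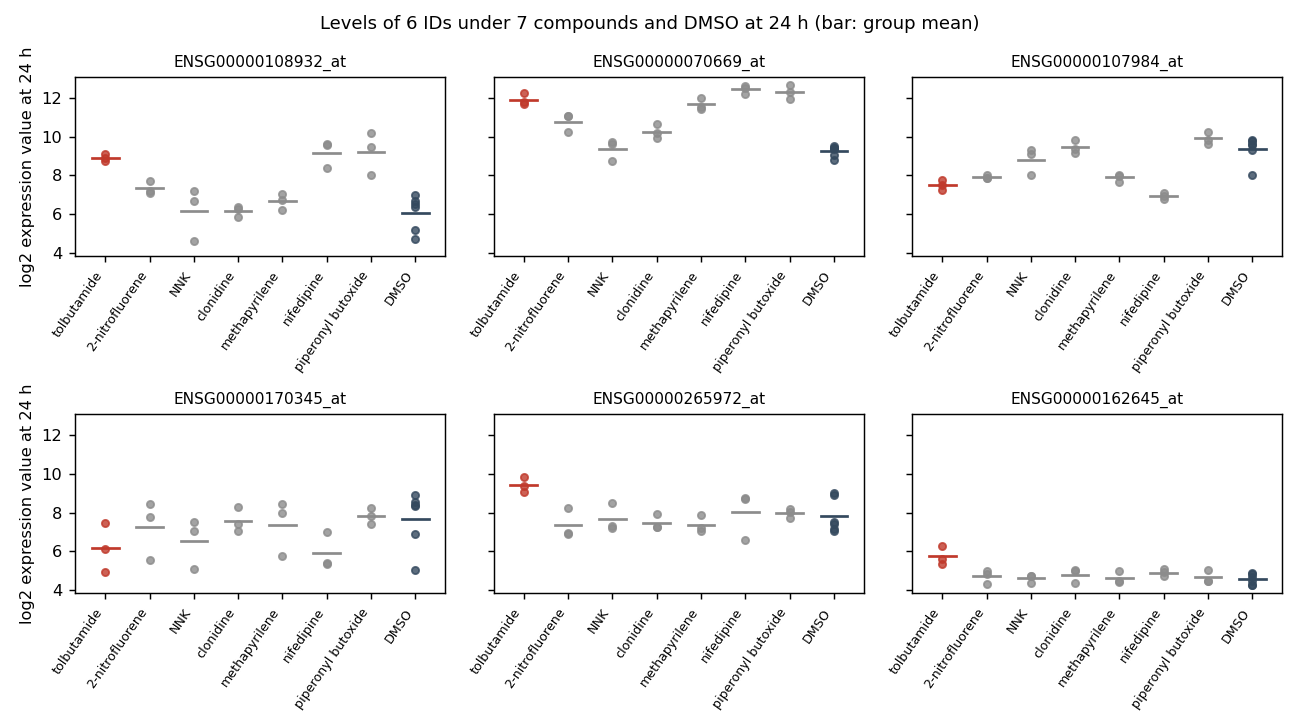
Log2 expression value at 24 h (y axis) of 6 IDs under tolbutamide (red), the 6 other compounds (grey) and DMSO (dark), each point being an array and each bar a group mean. In ENSG00000265972_at and ENSG00000162645_at the 3 red points are above all others, while in ENSG00000108932_at and ENSG00000070669_at nifedipine and piperonyl butoxide reach similar levels.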

How the data were processed

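Values were analysed as deposited: log2 expression values that the authors made with RMA (background correction, normalization between arrays and probe summary), per the submitters' processing notes, from biotin-labelled cRNA on Affymetrix arrays, per the labels' protocols. RMA hides differences in total RNA per cell. For its version, the probe set definition and any hybridisation batch, the answer is the same: not given in the sources used here.

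All 54 arrays entered 1 fit in R 4.3.3 with limma 3.58.1 (lmFit, eBayes; 16 groups, replicate number within time as a block, 34 residual degrees of freedom), with no filter and Benjamini-Hochberg adjustment over 20056 IDs within each contrast, called at adjusted p under 0.05. The block rests on the controls named in the labels: of 6 correlations between deviations of tolbutamide and DMSO arrays of the same number, the lowest was 0.0685 and the highest 0.560. Between arrays of different numbers the lowest was -0.354 and the highest 0.0683, almost equal to the lowest of the same number. Nothing beyond the term biological replicate says that replicates were separate cultures, so p-values measure the spread between these arrays, which may be technical. The code of the fit was run on simulated data with independent normal noise and no compressed array. That run does not bear on how such arrays move the calls.

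The named-ID rule took the 2 greatest rises and 2 greatest falls among called IDs with 3 of 3 replicates moving the same way, and up to 2 IDs in each direction for the time difference and for the comparison with all other compounds. The members, lists and tests were chosen with earlier results of these data known. Gene and marker lists were not applied, as 0 IDs matched a symbol. Alternatives are in the closing section.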

Additional observations from a re-analysis of the deposited data

Results flagged for a closer look

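DMSO 24 h exposure 2 replicate 2 had a slope of 0.911 on the mean of all arrays, apart from the other 5 DMSO arrays of that time. ENSG00000107984_at had a log2 level of 8.01 in the same array, also apart from the other 5 DMSO values, and its fall under tolbutamide was called with and without that array. The criterion, Dixon's test of the most distant value in a group, picks about 1 in 20 groups by chance.

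The response to tolbutamide differed between the times by a test of the difference itself for ENSG00000070669_at, at -2.56 on the log2 scale (48 h difference minus 24 h difference), and for ENSG00000139269_at, at -1.95. In both, DMSO cultures had a higher mean at 48 h than at 24 h, 11.7 and 9.25 for ENSG00000070669_at and 8.43 and 6.16 for ENSG00000139269_at. The cause was not tested.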

How the results depend on the processing

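The log2 differences of the named IDs kept their sign under the alternatives run, but the balance of calls against NNK turned without the 4 low-spread arrays, to 256 higher and 445 lower under tolbutamide, against 217 and 126 with all arrays. The count of calls against DMSO at 24 h, 405, was 233 without the replicate block, 138 with only the 9 arrays compared, 231 with DMSO exposure 1 alone, 177 with exposure 2 alone, 214 with the exposures averaged, 1068 without the 4 low-spread arrays and 2469 with array weights, whose iteration stopped before convergence. Leaving out 1 array of the 54 gave 198 (tolbutamide 24 h replicate 2) to 611 (piperonyl butoxide 48 h replicate 1). It was 299 with arrays centred on the median, 444 with cyclic loess, 423 without the lowest share (0.25) of IDs by level and 359 with trend and robust options. The time difference, called for 6 IDs, was called for 3 with only the arrays compared, 2 with DMSO exposure 1 alone, 0 with exposure 2 alone, 3 with exposures averaged, 12 without the low-spread arrays, 57 with array weights and 2 to 11 on leaving out 1 array. The 3 IDs apart from all compounds became 1 without the replicate block, 5 with median centring, 6 with cyclic loess, 7 without the low-spread arrays, 15 with array weights and 1 to 6 on leaving out 1 array. The call of ENSG00000170345_at was lost in 7 of 65 settings, with adjusted p = 0.198 with only the 9 arrays and 0.244 with exposure 1 alone beside those given above. The time difference of ENSG00000139269_at was lost in 4 (up to 0.124) and that of ENSG00000070669_at in 1 (0.0742, exposure 2 alone). The 24 h calls of the other 6 named IDs held in all 65. In all of these settings that used every ID, 30 rises and 54 falls were called. Leaving out each other array of the series beyond those of tolbutamide and 24 h DMSO was, except for piperonyl butoxide 48 h replicate 1, chosen after seeing the data.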
